A study of Sus scrofa with 63 samples.

Results

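Chaperones bind other proteins while they fold, move across membranes or are sent for degradation, and heat shock proteins are the members of these families first known for their induction by heat. Genes of these families were followed in liver of pig offspring across 4 ontogenetic stages. Members were all genes whose single symbol on the porcine array named an HSP or HSP-binding protein (perlecan, HSPG, left out), a J protein (DNAJA, DNAJB or DNAJC), a subunit of the chaperonin TRiC (TCP1 and CCT genes), a BAG or prefoldin gene with a number, or PTGES3. This gave 61 genes with 99 probe-sets, of 6765 genes and 10069 probe-sets with 1 symbol and of 23935 probe-sets without controls. Each gene was read from its probe-set with the highest mean over all arrays.

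Liver RNA of HP offspring was measured at 94 days post conception (94 dpc, 16 fetuses) and at 1, 28 and 188 days post natum (dpn, 16, 15 and 16 pigs), with 1 array per animal. All were German Landrace offspring of gilts given a high protein diet in gestation, so the diet is common to every group and its effect was not tested here. The 94 dpc fetuses came from other sows in a separate experiment and were taken at Caesarean section from anesthetized sows. Fetuses and 1 dpn piglets were killed by injection of different agents, and at 28 and 188 dpn pigs had fasted overnight before electronarcosis. The lightest and heaviest sibs were used at 94 dpc and 1 dpn, and the pigs of 28 and 188 dpn had been nursed by foster sows outside the experiment, with the males castrated. These features go with stage and cannot be told apart from it. Sex, mother and sib pair are not in the labels and entered no fit, so p-values measure the spread between the animals of a stage as if they were unrelated.

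A hepatocyte secretes large amounts of plasma protein, and most of that protein passes through the endoplasmic reticulum (ER), where the HSP70 protein BiP (HSPA5), the HSP90 protein GRP94 (HSP90B1) and their J proteins handle it. In the cytosol HSP70, its J proteins and its exchange factors receive new chains from the ribosome, HSP90 holds kinases and steroid receptors ready for activation, and TRiC folds actin and tubulin delivered to it by prefoldin. In mitochondria the HSP70 protein HSPA9 pulls in precursors, and HSPD1 with its lid HSPE1 folds them.

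All 9 hepatocyte markers on the array were above background on at least 50% of the arrays of every stage, with a mean log2 signal of 15.8, 15.5, 15.4 and 15.5 at 94 dpc, 1 dpn, 28 dpn and 188 dpn. Markers of red cell precursors averaged 10.5, 7.67, 7.66 and 7.34 at the same stages, those of the cell cycle 8.91, 8.64, 7.35 and 5.90, and those of macrophages 10.0, 10.5, 11.7 and 10.8. In such bulk samples fewer cells of a type and less RNA per cell cannot be told apart, and the part of these markers in the results on chaperones was not tested. The mean array median fell over the stages (7.38, 7.23, 6.83 and 6.71 log2 units). The 3′ minus 5′ signal of actin, a sign of RNA quality, averaged 2.44, 1.59, 3.66 and 4.10 log2 units. For RNAs added in preparation, that difference lay between 1.00 and 1.25 at 1 dpn, against 0.23 to 0.46 at 94 dpc, with no overlap. At 188 dpn it lay between 0.66 and 1.72, again above every fetus, so preparation and stage cannot be told apart either across birth or over the whole span. The actin difference ran from 0.75 to 3.16 at 1 dpn and from 3.15 to 4.02 at 28 dpn, so these stages were nearly apart too. The part of RNA quality in the changes between 1 dpn and 28 dpn was not tested.

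By stage means, 37 of the 61 members (60.7%) were lowest at 188 dpn, against 37.5% of all genes, and 23 (37.7%) were highest at 1 dpn, against 24.7% of all genes. The other members were highest at 94 dpc (24, or 39.3%, against 37.0% of all genes), at 28 dpn (5, or 8.20%, against 19.3%) or at 188 dpn (9, or 14.8%, against 19.0%). Of the 57 members that passed the filter on low signals, 53 (93.0%) differed among the 4 stages, which is close to the 92.6% of all probe-sets tested (limma F test). BAG1, BAG6, HSPB1 and HSPB6 did not pass, although a second probe-set of HSPB6 was called higher in period I (0.66, adjusted p = 0.000312) and lower in period II (−1.89). DNAJA4, DNAJC6 and HSPB3 stayed near background and were not tested. HSPB7 did not pass the filter either, though it was above background on 13 of 16, 10 of 16, 11 of 15 and 14 of 16 arrays at the 4 stages. Of all 61 members, 48 were above background on every array. HSPA2, HSPA6, HSPA12A and HSPB8 passed the filter in period I and over the whole span, and DNAJC9 in period III and over the whole span, through the stage where they were higher alone, so the direction of these calls was set by the filter.

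**Figure D1:**
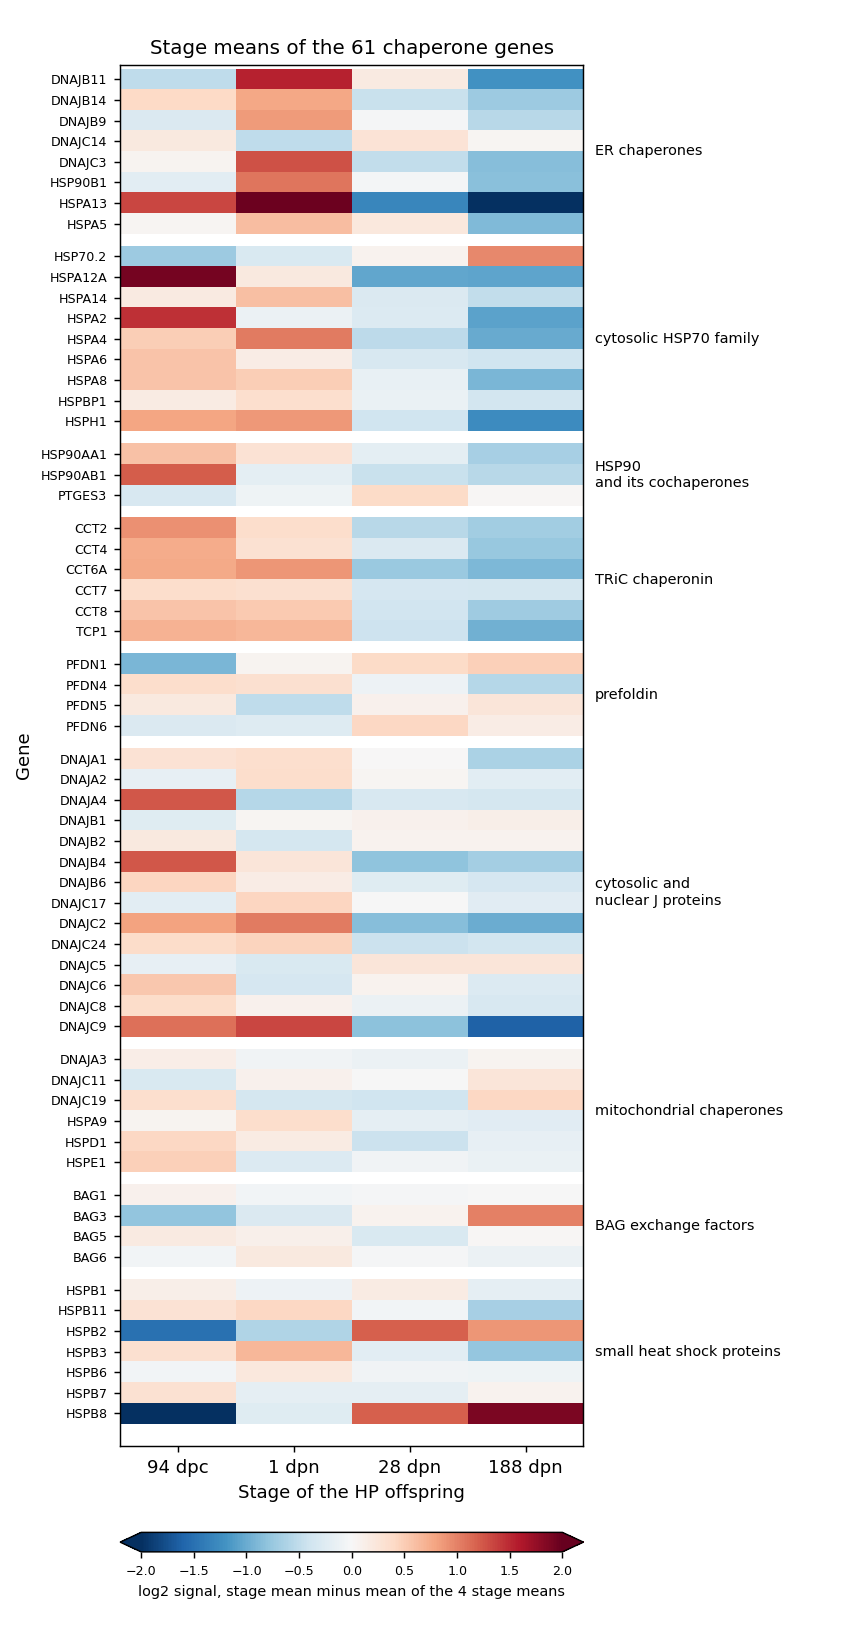
Stage means of the 61 members, 1 row per gene, as the log2 signal minus the mean of the gene's 4 stage means (colour, limits at 2 and beyond), with stages in time order from left to right and genes grouped by role. Most ER chaperones are reddest at 1 dpn, TRiC subunits turn blue at 28 dpn, and HSPB8, HSPB2, BAG3 and HSP70.2 turn red with age.

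The counts by period show where the changes lay. In period I (1 dpn against 94 dpc) 18 members rose and 16 fell, while 23 were not called. The background is high here: 56.9% of all probe-sets tested were called, 22.9% higher and 34% lower. Of the genes, read from 1 probe-set each as the members are, 28% were higher and 30.9% lower. Members with no overlap numbered 7, where 5.05% of probe-sets had none. Of the members tested, 31.6% rose and 28.1% fell, and their median change was 0.07, against −0.03 over all genes. With the 3′ minus 5′ difference of the added RNAs as a covariate, limma called 0 of 57 members in period I (1 had an unadjusted p under 0.05) and 2 probe-sets in all. In period II (28 dpn against 1 dpn) 9 members rose and 34 of 54 fell, where 71.7% of probe-sets were called, 28.8% higher and 42.9% lower. Of the members tested, 16.7% rose and 63% fell, against 34.1% and 36.8% of genes. The median change of the members was −0.43 and that of all genes −0.01. In period III (188 dpn against 28 dpn) 6 rose and 19 fell, with 34.7% of probe-sets called, 12.3% higher and 22.5% lower. Of the members tested, 11.1% rose and 35.2% fell, against 13.6% and 26.6% of genes. The medians were −0.20 for the members and −0.08 for all genes. Over the whole span (188 dpn against 94 dpc) 10 rose and 34 of 57 fell, with 80.1% of probe-sets called, 27% higher and 53.1% lower. Of the members tested, 17.5% rose and 59.6% fell, against 33.7% and 46.7% of genes. The medians were −0.67 for the members and −0.17 for all genes.

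These splits depend on the scale. The deposited values appear to be scaled by a trimmed mean, which had a median of 500 over the arrays. Centred on array medians instead, the median change of all genes across the 3 periods and the whole span was 0.08, 0.21, 0.02 and 0.28, and that of the members 0.18, −0.20, −0.10 and −0.22. The share of increases among called members was then 66.7%, 39.5%, 40.9% and 43.8%, against 52.9%, 20.9%, 24% and 22.7% on the deposited scale. Quantile normalization gave 33.3% over the whole span. No called member turned to a call in the opposite direction under any setting. Neighbouring periods share the arrays of the stage between them, so their changes are not independent of each other.

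By its median change, the ER chaperones were the group with the largest increase across birth. Of the 8 members, 7 rose in period I and 1 fell, with a median change of 0.88; in period II 7 fell and 1 rose, with a median of −1.16, and in period III 6 fell, 0 rose and the median was −0.61. Of all genes, 28% rose and 30.9% fell in period I, and 34.1% rose and 36.8% fell in period II. In period III 13.6% of all genes rose and 26.6% fell. The mean of 7 of the 8 was highest at 1 dpn, as was that of 24.7% of all genes. DNAJB11, a J protein that brings unfolded chains to BiP, rose most. Its lowest, median and highest log2 signals were 8.51, 9.66 and 10.64 at 94 dpc, 10.77, 11.65 and 12.36 at 1 dpn, 9.63, 10.24 and 11.55 at 28 dpn and 8.07, 8.84 and 9.89 at 188 dpn. Every newborn lay above every fetus, a separation seen in 1.85% of probe-sets upwards, and the later stages overlapped with their neighbours. DNAJB11 rose by 2.05 in period I, or 4.14-fold (SE 0.15, adjusted p = 5.35e-13), and then fell by 1.36 (SE 0.16, adjusted p = 3.58e-09) and by 1.39 (SE 0.17, adjusted p = 6.35e-08).

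HSP90B1, the HSP90 of the ER, had the same course. Its log2 signal was 12.15, 12.44 and 13.15 (lowest, median and highest) at 94 dpc, 13.25, 13.71 and 14.33 at 1 dpn, 12.11, 12.55 and 13.32 at 28 dpn and 10.73, 11.74 and 13.04 at 188 dpn. The newborns again stood above all fetuses, with a change of 1.28 (SE 0.11, adjusted p = 1.02e-11). HSP90B1 changed by −1.11 in period II (SE 0.12, adjusted p = 1.74e-09) and by −0.80 in period III (SE 0.18, adjusted p = 0.000667). A second probe-set for HSP90B1 gave 1.17, −1.30 and −0.96 in the 3 periods, all called.

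HSPA5, or BiP, whose release from stress sensors starts the unfolded protein response, moved less at birth and more up to 188 dpn. It had log2 signals of 13.76, 14.26 and 14.58 at 94 dpc, 14.45, 14.76 and 15.32 at 1 dpn, 14.09, 14.40 and 14.90 at 28 dpn and 11.83, 13.45 and 14.09 at 188 dpn. HSPA5 rose by 0.58 in period I (SE 0.09, adjusted p = 2.80e-06), and fell by 0.42 in period II (SE 0.09, adjusted p = 0.000105) and by 1.09 in period III (SE 0.16, adjusted p = 2.31e-06). Of the members, HSPA5 alone had no overlap in period III, where 1.26% of probe-sets had none, and the gap between its highest pig at 188 dpn (14.089) and its lowest at 28 dpn (14.094) was minimal. Its fall in period II was lost after centring on array medians (−0.19, adjusted p = 0.0528).

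DNAJB9, an ER J protein that keeps the stress sensor IRE1 quiet, rose by 1.14 in period I without overlap (SE 0.13, adjusted p = 9.52e-09) and fell by 0.88 in period II (SE 0.16, adjusted p = 9.07e-06). Its fall of 0.52 in period III (adjusted p = 0.0222) was not seen in its other probe-sets, which gave −0.34 and 0.07. DNAJC3, an ER cochaperone also known as an inhibitor of the kinase PKR, rose by 1.22 (SE 0.14, adjusted p = 5.05e-09), and fell by 1.77 in period II (SE 0.15, adjusted p = 8.53e-12) and by 0.36 in period III (adjusted p = 0.0419). The last of these calls was lost without the 188 dpn animals 15 and 16, whose array medians were the lowest (−0.30, adjusted p = 0.0975). It was also lost without the filter on low signals (adjusted p = 0.0863), after quantile normalization (0.128), after centring on array medians (0.133) and with array weights (0.0906). A second probe-set for DNAJC3 gave 0.83, −0.45 and −0.52 in periods I, II and III, all called. Over the whole span it gave −0.14, not called, against −0.91 for the brightest probe-set. DNAJB14, an ER membrane J protein, rose by 0.36 (adjusted p = 0.0141) and fell by 1.21 in period II without overlap (SE 0.11, adjusted p = 4.79e-11).

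HSPA13, an ATPase of the HSP70 family in microsomes, showed the largest decrease of any member in period II. Its log2 signals were 9.42, 10.31 and 11.07 at 94 dpc, 9.61, 10.97 and 12.29 at 1 dpn, 6.66, 7.71 and 8.72 at 28 dpn and 4.93, 7.30 and 8.38 at 188 dpn. No pig at 28 dpn reached the lowest newborn, with a change of −3.26, or 9.57-fold (SE 0.23, adjusted p = 6.90e-14), and 14 of 16 arrays at 188 dpn were above background. The difference across birth was 0.63 (SE 0.20, adjusted p = 0.00772). At 188 dpn it stood 0.70 below 28 dpn, which did not pass (adjusted p = 0.0511), though it passed when all 63 arrays entered 1 fit (adjusted p = 0.0253). DNAJC14, an ER membrane J protein known to bind the dopamine D1 receptor, was the exception of the group by its brightest probe-set. DNAJC14 fell there by 0.70 in period I (SE 0.11, adjusted p = 1.85e-06), rose by 0.79 in period II (SE 0.11, adjusted p = 1.79e-07) and fell by 0.24 in period III (adjusted p = 0.0184). Its other probe-set passed in none of these periods (−0.02, −0.19 and −0.28, adjusted p = 0.941, 0.315 and 0.336).

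**Figure D2:**
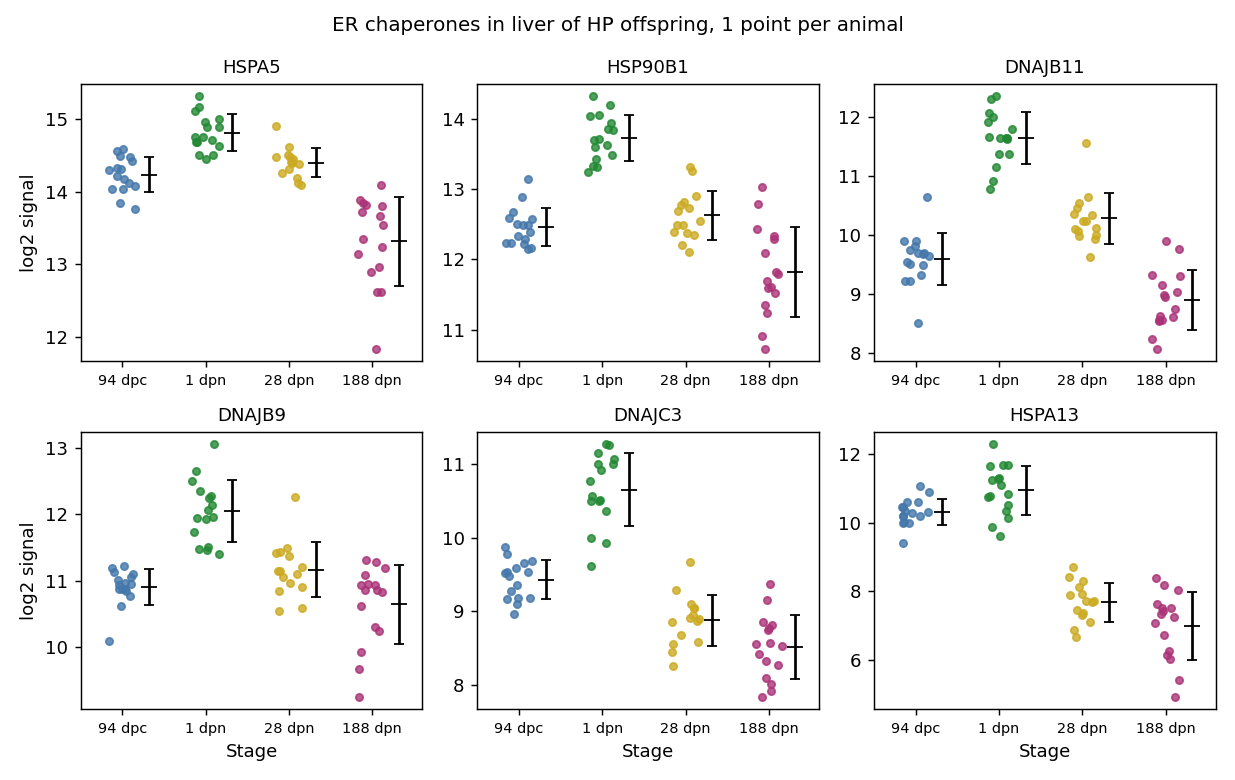
Log2 signal of 6 ER chaperones in each animal (points, stages in time order, 15 or 16 animals per stage), with the mean and SD as black bars beside the points and a separate axis for each gene. DNAJB11, HSP90B1 and DNAJB9 separate 1 dpn from 94 dpc, HSPA13 separates 28 dpn from 1 dpn, and all 6 but DNAJC3 have their largest SD at 188 dpn.

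Other genes of ER folding, from a list of 19 on the array, ran the same way in part. In period I 10 of 18 tested rose and 1 fell, in period II 3 rose and 10 fell, and in period III none rose and 10 fell. The shares that rose and fell were 55.6% and 5.56% in period I, against 28% and 30.9% of all genes. In period II they were 16.7% and 55.6% (34.1% and 36.8% of genes). In period III they were 0% and 55.6% (13.6% and 26.6% of genes). The largest increases at birth were those of SDF2L1, a partner of DNAJB11 (3.51, SE 0.19, adjusted p = 9.38e-17), CRELD2, a disulfide isomerase (2.48, SE 0.19), and PDIA4, another isomerase (1.85, SE 0.10), and all 3 had no overlap. HYOU1, the HSP110 of the ER, rose by 1.74 in period I without overlap and fell by 1.08 in period II. In period II ASNS, asparagine synthetase, a target of ATF4, changed by −3.88 (SE 0.19), and CALR, a lectin chaperone, went the other way with 1.68 (SE 0.12), both without overlap. The leading decreases in period III were CRELD2 (−1.51), ASNS (−1.28) and MANF, an ER stress factor (−1.22). Among transcripts of regulators, XBP1 was called lower in period I (−0.27, adjusted p = 0.0135). ATF4 (−0.04, adjusted p = 0.725) and DDIT3 (0.02, adjusted p = 0.933) did not pass in that period. Their changes in the later periods are not given here.

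HSPA5 and HSP90B1 varied more between animals at 188 dpn than at the earlier stages. The SD of HSPA5 was 0.24, 0.25, 0.20 and 0.61 at 94 dpc, 1 dpn, 28 dpn and 188 dpn, and that of HSP90B1 0.27, 0.33, 0.35 and 0.64. At 188 dpn these lay at percentiles 87.3 and 88.5 of 5500 genes, against 22.9 and 64.4 at 28 dpn. This was not particular to HSPA5 and HSP90B1. The SD of DNAJB9 was 0.27, 0.47, 0.42 and 0.60, and that of HSPA13 0.39, 0.73, 0.57 and 0.99. At 188 dpn they lay at percentiles 86.7 and 95.7. DNAJB14 also had its largest SD there (0.45). The SD of DNAJB11 was 0.44, 0.45, 0.44 and 0.51 at the 4 stages, that of DNAJC3 was larger at 1 dpn (0.49) than at 188 dpn (0.43), and that of DNAJC14 was lowest at 188 dpn (0.20). The SDs were not compared by a test. HSPA5 and HSP90B1 went together in the animals of that stage (r = 0.81, permutation p = 1e-04, adjusted p = 0.0012 over 12 correlations; rho = 0.81, adjusted p = 0.0042; n = 16), and r was 0.83 without the 2 pigs farthest from the median of HSPA5. At 28 dpn r was 0.67 (adjusted p = 0.0144, permutation test; rho = 0.67, adjusted p = 0.0192) and 0.43 without the 2 farthest, so that it rested in part on these. At 1 dpn (r = 0.37, adjusted p = 0.228, permutation test) and 94 dpc (r = −0.20, adjusted p = 0.566) the correlation did not pass. Whether r differed between stages was not tested. Animal 16, which had the lowest HSPA5 and HSP90B1, was 1 of the 2 pigs with low array medians.

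**Figure D3:**
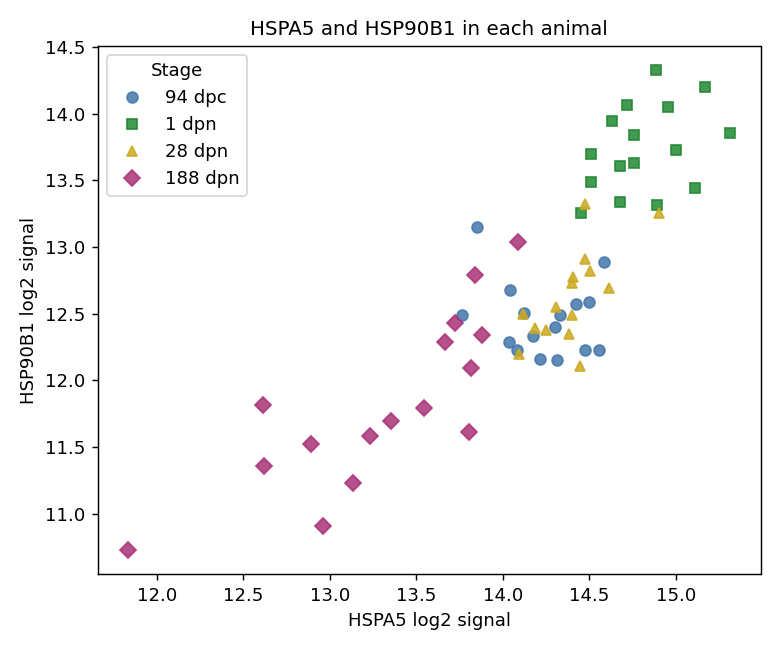
HSP90B1 against HSPA5 log2 signal in each of the 63 animals, with the stages told apart by colour and marker shape. The 188 dpn animals stretch from 11.83 to 14.09 on the HSPA5 axis along a rising line (r = 0.81), while the 1 dpn animals form a compact group at the upper right.

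HSP90AB1, the constitutive HSP90 of the cytosol, fell at birth: its log2 signals were 14.03, 14.54 and 14.69 at 94 dpc, 12.79, 13.04 and 13.59 at 1 dpn, 12.54, 12.84 and 13.15 at 28 dpn and 12.31, 12.70 and 13.14 at 188 dpn. All newborns lay below all fetuses, a separation that 3.2% of probe-sets showed downwards. The change in period I was −1.40, or 2.64-fold (SE 0.09, adjusted p = 4.52e-15), and it was followed by −0.25 in period II (adjusted p = 0.00759) and −0.11 in period III (adjusted p = 0.268). Centred on array medians, the change in period II was −0.025 (adjusted p = 0.797).

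HSP90AA1, the inducible HSP90, had medians of 14.06, 13.82, 13.27 and 12.98 at the 4 stages and changed by −0.30 in period I (adjusted p = 0.00485), −0.48 in period II (adjusted p = 1.53e-05), −0.46 in period III (adjusted p = 0.000683) and −1.24 over the whole span without overlap (SE 0.10, adjusted p = 8.82e-13). Its 5 probe-sets did not run alike. Over the whole span the other probe-sets of HSP90AA1 gave −2.18, −1.62, 0.57 and 0.58, all called, and in period I 2 of them were called higher (0.36 and 0.60). The direction of HSP90AA1 across birth therefore depends on the probe-set. PTGES3, the HSP90 cochaperone p23, rose by 0.48 in period II (SE 0.10, adjusted p = 0.000105) and fell by 0.37 in period III (SE 0.08, adjusted p = 0.000532), and its second probe-set gave 3.00 and −0.76.

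The group of the cytosolic HSP70 family takes in HSPBP1, an HSP70-binding protein and not itself an HSP70. Of its 9 members, 8 were called lower over the whole span, where 46.7% of all genes were, and 1, HSP70.2, rose. Of the 8, HSPA2, HSPA6 and HSPA12A were tested through the 94 dpc animals alone, so the filter fixed their direction; the others were HSPA4, HSPA8, HSPA14, HSPBP1 and HSPH1. HSPA8, the constitutive HSC70 that also uncoats clathrin vesicles, had medians of 14.00, 13.90, 13.26 and 12.67 and overlapped between neighbouring stages. HSPA8 changed by −0.07 in period I (adjusted p = 0.685), −0.64 in period II (SE 0.14, adjusted p = 0.000125) and −0.77 in period III (SE 0.14, adjusted p = 6.75e-05). The decrease in period II was shared by its 3 other probe-sets (−0.54, −1.07 and −0.91, all called), while that of period III was not (0.19, −0.03 and 0.06, none called).

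HSPH1 and HSPA4, HSP110 proteins that recharge HSP70 with ATP, had their highest mean at 1 dpn. HSPH1 had log2 signals of 8.98, 9.91 and 10.87 at 94 dpc, 8.65, 9.99 and 11.47 at 1 dpn, 7.69, 8.65 and 10.37 at 28 dpn and 6.70, 7.96 and 8.95 at 188 dpn. It fell by 1.26 in period II (SE 0.22, adjusted p = 9.09e-06), by 0.86 in period III (SE 0.23, adjusted p = 0.00315) and by 2.05 over the whole span, where only the last comparison had no overlap. HSPA4 rose by 0.55 in period I (SE 0.12, adjusted p = 0.000168) and fell by 1.57 in period II without overlap (SE 0.17, adjusted p = 1.72e-09), but its second tested probe-set gave −0.62 in period I (adjusted p = 0.0011) and −0.13 in period II (adjusted p = 0.505).

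HSPA2, best known from spermatogenesis, and HSPA12A, a distant HSP70 relative, faded towards background. HSPA2 fell by 1.57 in period I (SE 0.21, adjusted p = 1.21e-07), with 12 of 16 arrays above background at 1 dpn and 8 of 16 at 188 dpn. HSPA12A fell by 1.73 (SE 0.35, adjusted p = 8.94e-05), and its signal exceeded background on 10, 2 and 3 arrays at 1, 28 and 188 dpn, so its changes of −1.73 and, over the whole span, −2.98 are not exact. Both had no overlap over the whole span, as 16.1% of probe-sets downwards. Both passed the filter in period I through the 94 dpc animals alone, so the filter set the direction of these calls.

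HSP90AA1, by its brightest probe-set, and HSPH1, both targets of the heat shock factor, went together at 94 dpc and 188 dpn. Correlations with the other probe-sets of HSP90AA1 were not computed. The correlation was 0.78 at 94 dpc (adjusted p = 0.00246, permutation test; rho = 0.75, adjusted p = 0.0062; n = 16), 0.42 at 1 dpn (adjusted p = 0.175; rho = 0.46), 0.61 at 28 dpn (adjusted p = 0.0434; rho = 0.32, adjusted p = 0.37; n = 15) and 0.69 at 188 dpn (adjusted p = 0.00936; rho = 0.65, adjusted p = 0.0192). Without the 2 farthest animals r was 0.55, 0.25, 0.09 and 0.59, so at 28 dpn the relation rested on those pigs.

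TRiC fell as a group. All 6 subunits measured fell in period II (median −0.92), 2 had fallen in period I and 3 fell in period III, and over the whole span their changes lay between −0.71 (CCT7) and −1.67 (CCT6A), all called. Of all genes, 30.9%, 36.8% and 26.6% fell in periods I, II and III, and 46.7% over the whole span. The 33.3% of subunits that fell in period I was near the share of all genes. TCP1, the alpha subunit, had log2 signals of 11.60, 12.17 and 12.35 at 94 dpc, 11.60, 12.09 and 12.91 at 1 dpn, 10.62, 11.11 and 11.38 at 28 dpn and 10.02, 10.52 and 10.80 at 188 dpn. The fetuses and newborns overlapped, and every pig at 28 dpn lay below them. TCP1 fell by 1.08 in period II (SE 0.11, adjusted p = 1.85e-10) and by 0.55 in period III (SE 0.09, adjusted p = 4.75e-06).

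CCT6A, the zeta subunit, had the largest fall of the group in period II. Its log2 signals were 10.30, 11.37 and 11.88 at 94 dpc, 10.65, 11.44 and 11.96 at 1 dpn, 9.09, 9.88 and 10.56 at 28 dpn and 8.74, 9.68 and 10.34 at 188 dpn. The 28 dpn pigs lay below all newborns, with a change of −1.62 (SE 0.14, adjusted p = 5.48e-12), a separation that 6.74% of probe-sets showed downwards. The other subunits changed less in period II, by −0.91 (CCT2), −0.59 (CCT4), −0.66 (CCT7) and −0.92 (CCT8), all called with an adjusted p of 1.39e-06 or less. CCT2 (−0.55, adjusted p = 2.79e-06) and CCT4 (−0.44, adjusted p = 0.000759) were the subunits that fell at birth, and CCT4 (−0.46) and CCT8 (−0.32) also fell in period III. The last of these calls, that of CCT8 (adjusted p = 0.0184), was lost after centring on array medians (−0.22, adjusted p = 0.0839). The mean of the cell cycle markers was 7.35 at 28 dpn, against 8.64 at 1 dpn, and their part in the fall of TRiC was not tested.

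**Figure D4:**
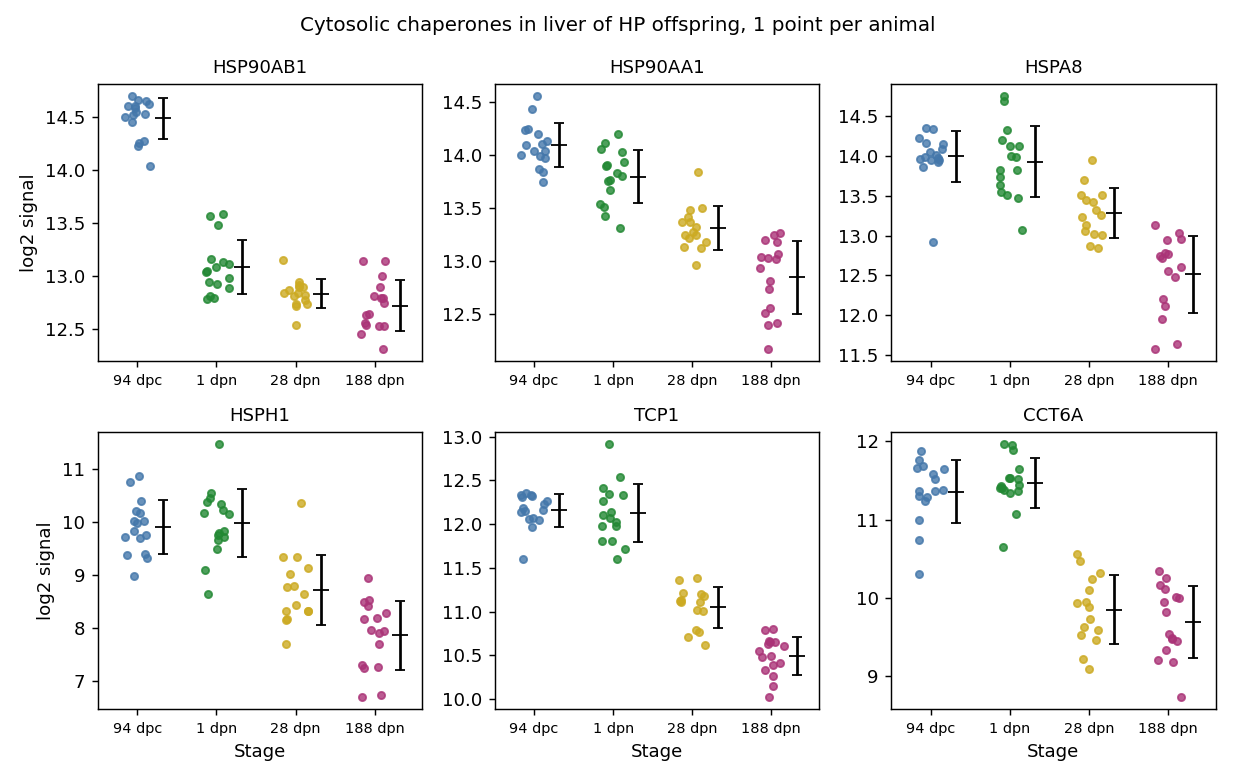
Log2 signal of 6 cytosolic chaperones in each animal (points, stages in time order), with the mean and SD as black bars beside the points and a separate axis for each gene. HSP90AB1 drops between 94 dpc and 1 dpn, and TCP1 and CCT6A drop between 1 dpn and 28 dpn without overlap.

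Prefoldin subunits, which hand actin and tubulin to TRiC, did not run as 1 group. PFDN1 had log2 signals of 8.81, 9.61 and 9.97 at 94 dpc, 10.17, 10.49 and 10.87 at 1 dpn, 10.58, 10.84 and 11.06 at 28 dpn and 10.74, 10.95 and 11.27 at 188 dpn. Its newborns lay above all fetuses, and it rose by 0.97 in period I (SE 0.09, adjusted p = 5.60e-11) and by 0.32 in period II (adjusted p = 9.40e-05). PFDN5 dipped at 1 dpn alone, where its 16 animals (10.02 to 10.74) lay below every fetus (10.94 to 11.39) and every pig at 28 dpn (10.82 to 11.47). PFDN5 fell by 0.71 in period I (SE 0.07, adjusted p = 9.19e-10) and rose by 0.61 in period II (SE 0.08, adjusted p = 7.71e-08). PFDN6 rose by 0.68 in period II (SE 0.12, adjusted p = 5.70e-06), while PFDN4 fell by 0.44 (SE 0.10, adjusted p = 0.000442).

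A small set of members rose with age. HSPB8, a small heat shock protein that works with BAG3 in selective autophagy, had the largest change of all. Its log2 signals were 2.95, 6.55 and 7.05 at 94 dpc, 7.36, 8.75 and 9.71 at 1 dpn, 9.73, 10.18 and 10.49 at 28 dpn and 9.95, 10.78 and 11.45 at 188 dpn. There was no overlap in periods I and II, and the signal was above background on 12 of 16 fetal arrays. HSPB8 rose by 2.60 in period I (SE 0.34, adjusted p = 6.43e-08), by 1.43 in period II (SE 0.17, adjusted p = 4.55e-09) and by 0.69 in period III (SE 0.13, adjusted p = 7.05e-05), and was the only member called higher in all 3 periods. The size of the first of these steps is not exact because of the fetal arrays near background. HSPB8 passed the filter in period I through the 1 dpn animals alone, so the filter set the direction of that call.

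HSPB2, a small heat shock protein known from muscle, had log2 signals of 7.58, 8.89 and 9.51 at 94 dpc, 9.03, 9.82 and 10.40 at 1 dpn, 11.26, 11.54 and 11.91 at 28 dpn and 9.70, 11.35 and 11.99 at 188 dpn. The pigs at 28 dpn all lay above the newborns, as in 4.95% of probe-sets upwards. HSPB2 rose by 0.89 in period I (SE 0.16, adjusted p = 2.07e-05) and by 1.80 in period II (SE 0.13, adjusted p = 1.73e-13), and did not pass in period III (−0.31, adjusted p = 0.0971). CRYAB, alpha B crystallin, which lies next to HSPB2 in the gene order of Sscrofa11.1, rose by 1.35 (SE 0.21, adjusted p = 1.57e-06) and 2.15 (SE 0.18, adjusted p = 2.62e-12) in the same periods, the second without overlap.

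BAG3, the exchange factor that pairs HSP70 with HSPB8, had log2 signals of 8.99, 9.94 and 10.58 at 94 dpc, 9.66, 10.34 and 11.54 at 1 dpn, 10.26, 10.76 and 11.37 at 28 dpn and 10.79, 11.73 and 12.66 at 188 dpn. Neighbouring stages overlapped, but the 188 dpn pigs lay above all fetuses. BAG3 rose by 0.49 in period I (SE 0.17, adjusted p = 0.0118) and by 0.95 in period III (SE 0.15, adjusted p = 4.65e-06), and by 1.80 over the whole span (SE 0.15, adjusted p = 4.91e-13). In period II it stood 0.35 higher, which did not pass (adjusted p = 0.0621), and a second probe-set of BAG3 was lower by 0.64 (adjusted p = 0.0023).

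HSP70.2, a heat-inducible HSP70 of the pig, had log2 signals of 10.43, 11.17 and 11.96 at 94 dpc, 10.85, 11.57 and 12.63 at 1 dpn, 11.12, 12.17 and 12.78 at 28 dpn and 12.21, 12.79 and 13.75 at 188 dpn. The 188 dpn pigs lay above all fetuses, with a change of 1.68 (SE 0.16, adjusted p = 3.73e-11), and the step of period III was 0.90 (SE 0.17, adjusted p = 9.75e-05). The call in period I was lost without fetus 6 (0.36, adjusted p = 0.0615), and 0.37 in period II did not pass (adjusted p = 0.0595). Of its other 2 probe-sets, both called higher in period III and over the whole span, 1 was called higher in period I (0.70, adjusted p = 0.000572) and the other in period II (0.94, adjusted p = 2.10e-06). The mean of the HSP70.2 probe-sets passed in period II too (0.50, adjusted p = 0.00433). Probe-sets of closely related HSP70 genes can share signal, so HSP70.2 may include copies of the same family. HSPB1, or HSP27, did not pass in any period (0.27 in period II, adjusted p = 0.0894). HSPB11, a transport protein of cilia despite its name, fell by 0.47 in period II (adjusted p = 0.00092) and by 0.61 in period III (adjusted p = 7.45e-05).

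**Figure D5:**
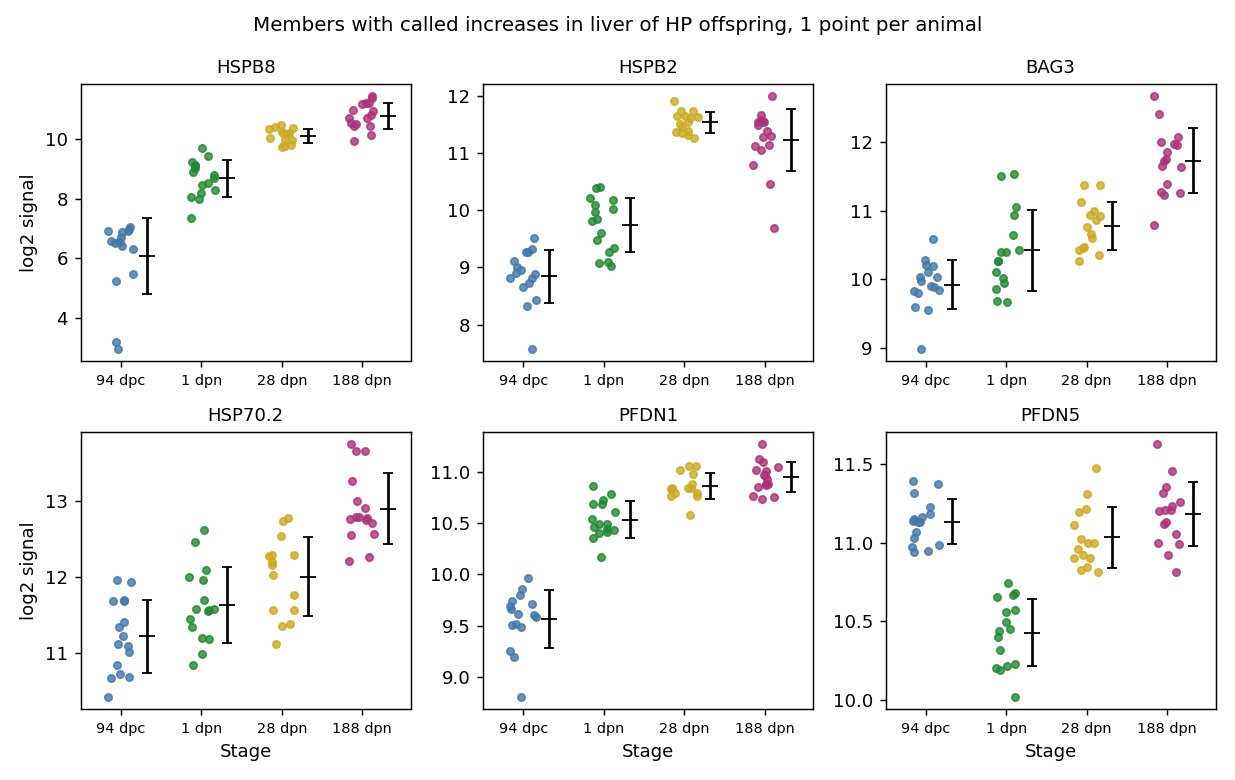
Log2 signal of 6 members with called increases in each animal (points, stages in time order), with the mean and SD as black bars beside the points and a separate axis for each gene. HSPB8 climbs at every stage, HSPB2 steps up at 28 dpn, BAG3 and HSP70.2 are highest at 188 dpn, and PFDN5 dips at 1 dpn alone.

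Among the 14 J proteins of the cytosol and nucleus, 9 of 12 tested fell in period II and 2 rose, after 2 had risen and 4 had fallen in period I. In period I 33.3% thus fell, near the 30.9% of all genes, and 16.7% rose, against 28%. In period II 75% fell and 16.7% rose, against 36.8% and 34.1% of all genes. DNAJC9, a J protein that binds histones, had log2 signals of 7.93, 8.69 and 9.13 at 94 dpc, 7.52, 8.97 and 9.70 at 1 dpn, 5.87, 6.90 and 7.12 at 28 dpn and 5.24, 5.93 and 6.83 at 188 dpn, the last above background on 9 of 16 arrays. All pigs at 28 dpn lay below all newborns. DNAJC9 fell by 2.15 in period II (SE 0.18, adjusted p = 5.45e-12) and by 0.79 in period III (SE 0.15, adjusted p = 7.38e-05). It passed the filter in period III through the 28 dpn animals alone, so the filter set the direction of that call.

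DNAJC2, which works on the ribosome, fell by 1.90 in period II (SE 0.33, adjusted p = 6.10e-06), with 12 of 15 arrays above background at 28 dpn. DNAJB4, a J protein of the HSP40 type, fell by 0.99 in period I (SE 0.19, adjusted p = 3.82e-05) and by 1.06 in period II (SE 0.21, adjusted p = 3.23e-05). DNAJB1, the main inducible HSP40, did not pass in any period (0.28 in period I, adjusted p = 0.11). DNAJB6 fell by 0.40 in period II (adjusted p = 0.000133), but of its other probe-sets 1 rose (1.01, adjusted p = 1.15e-09) and 1 fell (−0.90). DNAJC5, a chaperone of vesicle exocytosis, rose by 0.54 in period II (SE 0.12, adjusted p = 0.000269).

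A list of 19 genes of the cytosolic heat shock response and cochaperones held 6 that rose and 2 that fell in period I, 3 and 12 in period II, and 1 and 4 in period III. The shares that rose and fell were 31.6% and 10.5% in period I, against 28% and 30.9% of all genes. In period II they were 15.8% and 63.2% (34.1% and 36.8% of genes). In period III they were 5.26% and 21.1% (13.6% and 26.6% of genes). FKBP5, a cochaperone of the glucocorticoid receptor, rose by 1.73 at birth without overlap (SE 0.23, adjusted p = 8.26e-08), while ST13, which links HSP70 to HSP90, fell by 0.87 without overlap (SE 0.07, adjusted p = 1.24e-11). In period II the largest decreases were CACYBP, an HSP90 partner (−1.30, SE 0.13), and VBP1, a prefoldin subunit (−1.27, SE 0.14). In period III STIP1, which passes clients between HSP70 and HSP90, fell by 0.59 (adjusted p = 0.00414) and PPID, an HSP90 cyclophilin, by 0.49 (adjusted p = 0.00746), and ST13 rose by 0.43 (adjusted p = 0.000122). HSF1, the master heat shock factor, did not pass in any period.

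Mitochondrial chaperones did not share a direction. HSPE1, the lid of the mitochondrial chaperonin, had log2 signals of 14.69, 14.99 and 15.32 at 94 dpc, 13.32, 14.30 and 14.87 at 1 dpn, 14.23, 14.45 and 15.03 at 28 dpn and 13.64, 14.41 and 14.79 at 188 dpn. It fell by 0.75 in period I (SE 0.11, adjusted p = 3.79e-07), with overlap of the stages. HSPD1, the barrel of that chaperonin, had medians of 14.13, 13.80, 13.27 and 13.57 and fell by 0.60 in period II (SE 0.13, adjusted p = 0.000138), while its −0.25 in period I did not pass (adjusted p = 0.0516). HSPD1 and HSPE1 are direct neighbours in the gene order of Sscrofa11.1. They went together at 1 dpn (r = 0.76, adjusted p = 0.00304, permutation test; rho = 0.74, adjusted p = 0.0062; n = 16; r = 0.61 without the 2 farthest animals) but did not pass at 94 dpc (r = 0.25, adjusted p = 0.466), 28 dpn (r = −0.01, adjusted p = 0.968) or 188 dpn (r = −0.07, adjusted p = 0.856).

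HSPA9, the import motor HSP70, rose by 0.30 in period I (adjusted p = 0.00735) and fell by 0.53 in period II (SE 0.09, adjusted p = 6.11e-06), and its other probe-sets fell by 0.55 and 3.91 in period II. DNAJC19, a J protein of the same motor, fell by 0.68 in period I (SE 0.17, adjusted p = 0.000766) and rose by 0.82 in period III (SE 0.12, adjusted p = 2.51e-06). In a list of 13 genes of mitochondrial import and quality control, 7 rose and none fell in period I, 4 rose and 5 fell in period II, and 4 rose and 1 fell in period III. The shares that rose and fell were 53.8% and 0% in period I, against 28% and 30.9% of all genes. In period II they were 30.8% and 38.5%, near the 34.1% and 36.8% of genes. In period III they were 30.8% and 7.69% (13.6% and 26.6% of genes). GRPEL1, the exchange factor of HSPA9 (0.96, SE 0.10), TIMM50, a receptor of the inner membrane (0.96, SE 0.12), and the protease LONP1 (0.63, SE 0.08) led in period I. The receptor TOMM70 (−2.23, SE 0.12) and the protease YME1L1 (−1.56, SE 0.14) fell without overlap in period II, where TOMM22 rose by 1.28. In period III TIMM44 fell by 0.55 and CLPB, a disaggregase, rose by 0.45.

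Of the BAG family other than BAG3, BAG5 fell by 0.41 in period II (adjusted p = 0.00162) and rose by 0.32 in period III (adjusted p = 0.00855), and the brightest probe-sets of BAG1 and BAG6 did not pass in any period. The second probe-set of BAG1 was called lower in period II (−0.78, adjusted p = 9.33e-08), and a second one of BAG6 higher in period I (1.06, adjusted p = 0.0104) and lower in period II (−3.04, adjusted p = 7.98e-10). Over the whole span 5 of the 57 members tested rose without overlap, a share near the 7.8% of probe-sets that separated upwards. They were HSPB8 (4.72), HSPB2 (2.38), HSP70.2, BAG3 and PFDN1 (1.39). Downwards, 16.1% of probe-sets separated, and the 13 members that did were HSPA13 (−3.33), HSPA12A, DNAJC9 (−2.71), HSPA2 (−2.52), HSPH1, DNAJB4 (−1.92), DNAJC2 (−1.80), HSP90AB1 (−1.77), TCP1 (−1.66), CCT2 (−1.61), HSPA4 (−1.50), CCT8 (−1.28) and HSP90AA1. HSPA12A, DNAJC9 and HSPA2 were tested through the 94 dpc animals alone, and only 3, 9 and 8 of the 16 oldest pigs had a signal past background, so their changes are not exact. HSPB8 was tested through the 188 dpn animals alone. The filter thus set the direction of these 4 members. HSP90AA1 stands in this list by its brightest probe-set, and 2 of its other probe-sets rose over the same span.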

How the data were processed

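Liver RNA of 63 animals was labelled with biotin and hybridised to the Affymetrix porcine genome array, 1 animal per array. The deposited table holds the signals of 24123 probe-sets (188 of them controls) as log2 values made by the authors, and the submitters' processing notes name GCOS 1.1.1. The mean of the linear values of an array without the top and bottom 2% had a median of 500 over the arrays, and 2330 signals below 1 stand at 0. The study's own tests used GCRMA values and a mixed model with sex, mother and weight, which were not used here. The number of animals limits the precision.

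Groups were the stages of the labels. A probe-set was tested if it exceeded the array percentile 50 in no less than 50% of the animals of 1 stage compared. Tests were two-sided and used limma 3.58.1 in R 4.3.3 (lmFit and eBayes), each comparison on its own arrays, with Benjamini-Hochberg adjustment over all probe-sets tested and calls at an adjusted p under 0.05. Changes and SE are in log2 units, the later stage minus the earlier. A signal was above background past the 95th percentile of 23 control probe-sets for RNAs not in the sample. Stages had no overlap where the lowest animal of one lay above the highest of the other. Correlations within a stage used 100000 permutations, and the planned pair of CCT2 with CCT5 was not run because CCT5 had no probe-set with that symbol, so 12 values entered the adjustment. Probe-sets were named by the platform annotation; 60 of 61 members matched RefSeq (Sscrofa11.1) and no symbol differed. The steps were tested on simulated data.

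Members and lists were chosen with earlier results of these data known. Named were, per period, the 5 largest called increases and the 5 largest decreases, members without overlap, a fixed set of main chaperones, and the 3 largest called changes of each neighbouring list; BAG1, BAG6, PFDN4, HSPB6, HSPB11, DNAJB1, DNAJB6, DNAJB14, DNAJC5, XBP1, ATF4, DDIT3, HYOU1 and HSF1 were added where they stand outside this rule. Alternatives were other filters, scalings, probe-set choices, thresholds and weights, a covariate, and left-out arrays. Of the deposited sample columns, 0 were left out.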

Additional observations from a re-analysis of the deposited data

How the results depend on the processing

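Of 1392 values of named genes under alternative settings, 1268 counted as unchanged, 82 lost the call, 34 gained one and 8 called values changed sign. A change of sign was counted only for values called in the main setting. The 1268 can therefore include values not called there that changed direction. With the 3′ minus 5′ difference of the added RNAs as a covariate, 0 members were higher and 0 lower in period I, and HSPA13 (−0.28), DNAJB9 (−0.59), HSP70.2 (−0.22) and BAG3 (−1.16) turned negative without a call. That covariate left 9 and 34, 6 and 18, and 8 and 31 members higher and lower in period II, period III and the whole span. It separates the stages completely in period I and over the whole span. HSP90AA1 in period I turned to 0.089 with the mean of its probe-sets and 0.046 with the most variable one, DNAJB9 in period III to 0.069 with the most variable one, and HSPA9 over the whole span to 0.16 after centring. With a change of at least 2-fold also asked for, the counts of members higher and lower were 5 and 3 in period I, 2 and 12 in period II, 0 and 2 in period III and 5 and 17 over the whole span. Members called higher in period II numbered 5 without the 25% least variable probe-sets and 15 after centring on array medians, and over the whole span 6, and 21 after centring and 16 after quantile normalization. The causes were not tested. HSP90AA1 with HSPH1 at 1 dpn passed after quantile normalization (r = 0.58, adjusted p = 0.0268, permutation test). Leaving out the 188 dpn animals 15 and 16 was chosen after seeing the data; 23 of 25 calls of period III and 43 of 44 of the whole span remained. No paired analysis was possible because the labels give no sib pair or shared replicate number across stages.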
